A study of Mus musculus with 4 samples.

Results

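The clustered histone genes of the mouse were followed in polyadenylated RNA of fibroblasts with and without induced Mitf. The members were all genes whose GENCODE M21 symbol begins with Hist1h, Hist2h, Hist3h or Hist4h and that have at least 1 exon with listed values. These were 67 of the 70 genes with such symbols and of the 22835 genes with listed exons. They comprised 6 H1, 19 H2A, 17 H2B, 12 H3 and 13 H4 genes, 53 of them on chromosome 13, 10 on chromosome 3, 3 on chromosome 11 and 1 on chromosome 6. Hist1h2aa, Hist1h2bh and Hist1h2bm had no listed exon. The level of a gene was the RPKM, a read count scaled to exon length and to the depth of the library, of its highest exon.

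The libraries used were 1 of wild-type mouse embryonic fibroblasts at passage 3 (MEF), 1 of Mitf knock-in fibroblasts at passage 5 without doxycycline (Dox (-)), and 1 of the same knock-in fibroblasts at passage 5 after 6 days of doxycycline (Dox (+)). Doxycycline switches on M-Mitf, the melanocyte form of the transcription factor, from the Col1a1 locus through a transactivator at Rosa26, so that Dox (-) and Dox (+) both carry the transgenes and MEF does not. The knock-in fibroblasts came from chimeric embryos made with a targeted ES cell clone, and such embryos also hold host cells, from which the transgenic cells can be selected by an mCherry marker and puromycin resistance. A library of primary mouse melanocytes was not analysed here. With 1 library per condition no difference had a replicate check, no p-value was computed, and every interval given covers the counting error of the reads only, at a confidence level of 95%.

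Core histones H2A, H2B, H3 and H4 package DNA into nucleosomes, and the linker histone H1 binds the DNA where it enters and leaves them. Most clustered histone genes have no introns and are transcribed in S phase, and their mRNAs end not in a poly(A) tail but at a short conserved stem-loop that is bound by Slbp, the stem-loop binding protein. A poly(A)-selected library therefore reads the part of their output that carries a tail, and the replacement variants such as H3f3a, H3f3b and H2afz, which lie outside the clusters and are made through the whole cell cycle, are ordinary polyadenylated messages.

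The stem-loops of 7 members that lie above 10 RPKM in Dox (-) are shown here because the members are sorted by them in what follows. The capitals mark the 16 bases of stem and loop, 5′ to 3′ on the sense strand.
Hist1h1c: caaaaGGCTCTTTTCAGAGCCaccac
Hist1h2bg: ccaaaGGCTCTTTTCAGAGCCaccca
Hist1h2bk: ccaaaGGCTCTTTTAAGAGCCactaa
Hist1h3d: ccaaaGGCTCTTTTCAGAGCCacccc
Hist2h3c1: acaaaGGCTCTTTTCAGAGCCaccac
Hist2h2aa1: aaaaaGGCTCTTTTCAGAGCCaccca
Hist1h4d: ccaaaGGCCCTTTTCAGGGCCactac
In GRCm38, which is mm10, these windows lie at chr13:23739507-23739532 (plus strand) for Hist1h1c, chr13:23571838-23571863 (plus) for Hist1h2bg, chr13:22036295-22036320 (plus) for Hist1h2bk, chr13:23576239-23576264 (plus) for Hist1h3d, chr3:96247322-96247347 (plus) for Hist2h3c1, chr3:96246027-96246052 (plus) for Hist2h2aa1 and chr13:23581945-23581970 (plus) for Hist1h4d, each after the coding sequence in the 3′ untranslated region. A search of the annotated transcripts for the histone stem-loop, with all 6 base pairs intact, found one in 44 of the 67 members, against 9 of 21810 other protein coding genes, 0.0413%. The form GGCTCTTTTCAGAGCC was found in 24 members, of the H1, H2A, H2B and H3 classes, and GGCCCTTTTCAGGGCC in 7, all of them H4 genes. The transcript models of the other 23 members hold no match.

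Upstream, 2 windows of the histone promoters are shown because each lies between an H2A gene and an H2B gene that are transcribed away from each other, and the levels of the paired genes are compared further on. The capitals mark the octamer ATTTGCAT, the motif bound by the transcription factor Oct1, read on the strand of the H2B gene.
Hist1h2bg: tgagtcccttATTTGCATagaacctcta
Hist1h2bk: atttcactttATTTGCATacgaagttct
These lie at chr13:23571331-23571358, between Hist1h2ae and Hist1h2bg, and at chr13:22035781-22035808, between Hist1h2ah and Hist1h2bk. In RefSeq promoter windows of GRCm38.p6, from 250 bases before to 50 after the gene start, ATTTGCAT was present on either strand for 6 of 14 H2B genes and 6 of 17 H2A genes, for 0 of 6 H1, 0 of 10 H3 and 0 of 12 H4 genes, and for 1.93% of 26966 other genes. Of the 67 members, 59 could be matched to such a window. TATAAA was present for 34 of the 59, against 15.6% of the other genes. CACGTG, the E-box letters that MITF is known to bind, was present for 0 of the 59, against 8.11%, and CATGTG for 1 of the 59, against 15.9%. These are matches of letters on both strands and no measure of binding.

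Before the levels are given, 1 stretch of chromosome 13 has to be set apart. RPKM values were turned back into reads with the M21 exon lengths and depths of 45000000 reads for MEF and Dox (-) and 44000000 for Dox (+), at which 97.2% to 97.4% of low values came out whole within 0.05 reads. From Hist1h1t to Hist1h2ba, 238 kb at chr13:23695814-23934156, all exons that gave whole reads had at least 62 reads in Dox (+), 4 in Dox (-) and 0 in MEF. Of the 77 such exons of genes that are no members, 62 exons had exactly these 3 numbers, in Trim38, Slc17a1, Slc17a2, Slc17a3, Slc17a4 and Snrp1c-ps2, on exons from 23 to 2886 bp long. RPKM on these 62 exons in Dox (+) ranged from 0.488 to 61.3 for that 1 number of reads. The 2 listed exons of Scgn, the next gene, had 0 reads in all 3 libraries.

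**Figure D1:**
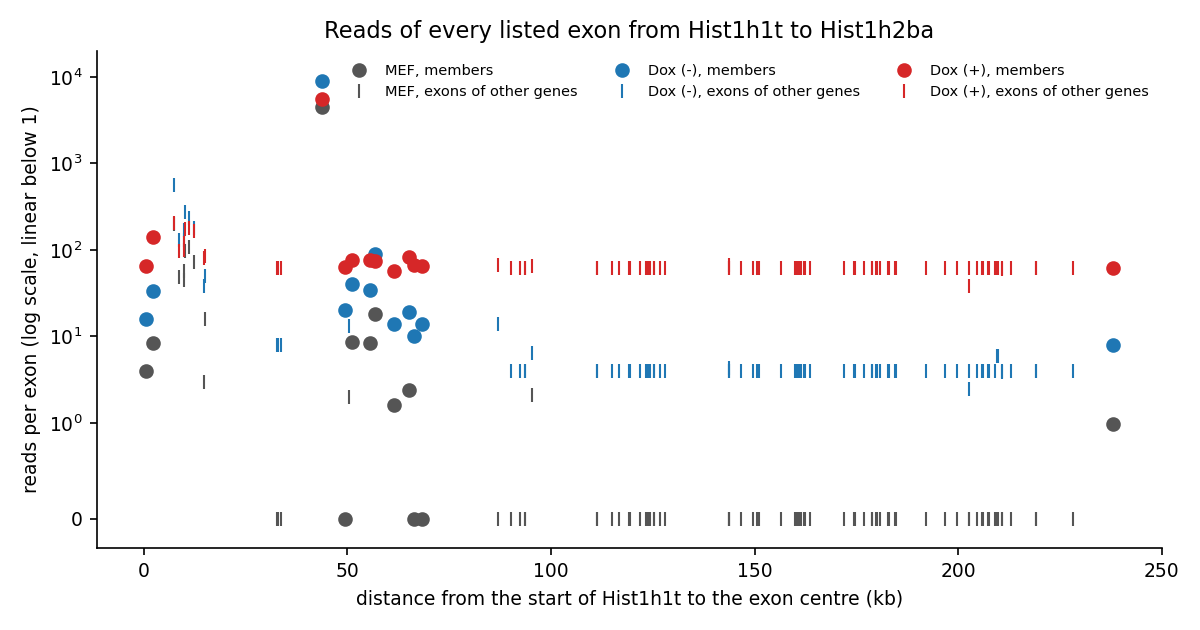
Reads on each listed exon (vertical axis, log scale above 1) against the distance of the exon from the start of Hist1h1t in kb (horizontal axis), with members as filled circles and exons of other genes as ticks, for MEF in grey, Dox (-) in blue and Dox (+) in red. The red ticks form a level line at 62 reads and the blue ticks one at 4 reads along most of the stretch. Apart from Hist1h1c the members in Dox (+) lie between 57 and 141 reads, and Hist1h4c, at 141, lies apart from the red line.

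The 12 members in this stretch are Hist1h1t, Hist1h4c, Hist1h1c, Hist1h3c, Hist1h2bb, Hist1h2ab, Hist1h3b, Hist1h4b, Hist1h4a, Hist1h3a, Hist1h1a and Hist1h2ba. Of these, 10 had a higher RPKM in Dox (+) than in Dox (-). Hist1h3a, an H3 gene, had 0 reads in MEF, 10 in Dox (-) and 66 in Dox (+). Hist1h3c, another H3 gene, had 0, 20 and 64. With the common 4 and 62 reads taken off, 6 and 4 reads were left for Hist1h3a and 16 and 2 for Hist1h3c. With these numbers the direction of the difference turned for both genes. The exons with exactly 4 and 62 reads lie at chr13:23785877-23924164, beyond both genes, however. On their other side the exons of Gm11338 had 8 reads in Dox (-) and 62 in Dox (+). The number to take off in Dox (-) is therefore not certain, and the few reads left for Hist1h3a do not settle its direction. For 8 of the 12 the M21 exon length did not give whole reads, so that the common reads could not be taken off exactly. Among these 8, Hist1h4c had about 33 reads in Dox (-) and 141 in Dox (+), more than the common 4 and 62. The part of the common reads in its difference was not tested. Hist1h1c, with 8852 reads in Dox (-) and 5521 in Dox (+), changed little, to 8848 and 5459. Results for the members are therefore given with and without these 12 genes wherever that changes them, and what produced the common reads was not tested.

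Most clustered histone genes were low in these libraries, and H2B genes made up most of the signal. Of the 67 members, 7 exceeded 10 RPKM in MEF, 17 in Dox (-) and 13 in Dox (+), while 52.0% of all genes did so in MEF, 56.0% in Dox (-) and 53.9% in Dox (+). The number of members above 1 RPKM was 25 in MEF, 43 in Dox (-) and 40 in Dox (+), and 16 members stayed at or under 1 RPKM in all 3 libraries. Without the 12 genes of the stretch, 24, 39 and 28 of 55 members exceeded 1 RPKM, so that the numbers for Dox (-) and Dox (+) were close only with them. In Dox (+) the H3 median was 1.36 RPKM with the stretch and 0.190 without it, and the H4 median 1.65 and 0.410. The summed level of all members was 333 RPKM in MEF, 918 in Dox (-) and 794 in Dox (+). H2B genes held 66.0% of that sum in MEF, 68.7% in Dox (-) and 74.5% in Dox (+). Without the stretch, which holds Hist1h1c, the members summed to 267, 781 and 680 RPKM in the same order. H2B genes then held 219, 629 and 584 RPKM, and their share did not rise from MEF to Dox (-). Hist1h2bc alone had 120.3, 304 and 283 RPKM. Because a histone mRNA is short and the level is per kb, these sums compare members with each other and not with the RNA mass of the cell.

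**Figure D2:**
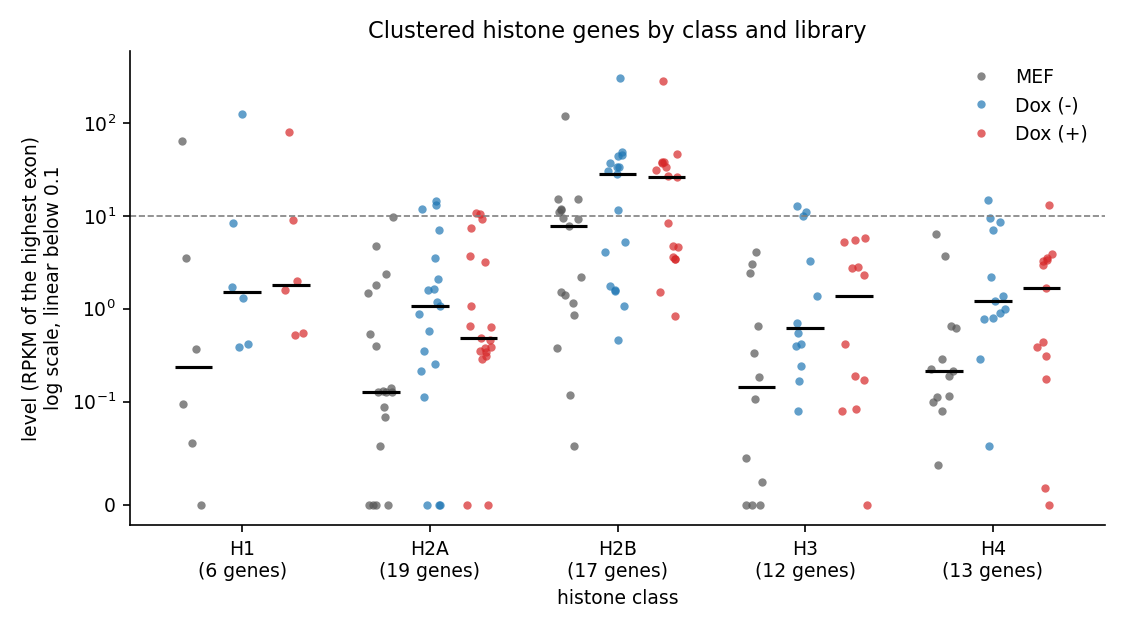
Level of each of the 67 members (RPKM of the highest exon, vertical axis, log scale above 0.1) by histone class and library, with 1 point per gene, the median of the class as a black line and a dashed line at 10 RPKM. The H2B medians were 7.70 in MEF, 28.5 in Dox (-) and 26.1 in Dox (+), and the medians of the other 4 classes lay under 2 RPKM in each library.

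Among the H2B genes, 10 exceeded 10 RPKM in at least 1 library. Hist1h2bc had the highest level of all members, with 120.3 RPKM in MEF, 304 in Dox (-) and 283 in Dox (+). Next came Hist1h2bg with 15.3, 49.1 and 46.2 RPKM in the same order. Each of these genes was lowest in MEF, and its levels in Dox (-) and Dox (+) were closer to each other than to that in MEF. Hist1h2br had 11.96, 45.1 and 38.1 RPKM. Hist1h2bq had 11.6, 43.8 and 37.0 RPKM. All 50-base words of this exon also occur in Hist1h2br, so that reads of these genes cannot be told apart. Hist1h2bl had 11.0, 36.7 and 33.9 RPKM. Hist1h2bk had 9.56, 33.5 and 30.9 RPKM. Hist1h2bn had 7.70, 30.4 and 26.8 RPKM. The same order of libraries, with MEF lowest and Dox (-) a little above Dox (+), held for each of these genes. Hist1h2bf had 9.21, 28.5 and 26.1 RPKM. Hist1h2bp had 2.22, 11.5 and 8.28 RPKM. The values of Hist1h2be, 15.1, 33.3 and 38.1 RPKM, came from an exon of 179 bp that lies inside Hist1h1e, an H1 gene on the same strand, and its own exon of 2297 bp was at 3.79, 9.24 and 9.79 RPKM. It was the only one of the 10 with a higher level in Dox (+) than in Dox (-).

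Only 1 H1 gene stood out. Hist1h1c, which encodes a linker histone also made outside S phase, had 63.9 RPKM in MEF, 126 in Dox (-) and 80.4 in Dox (+), second only to Hist1h2bc. Hist1h1e had 3.54, 8.32 and 8.93 RPKM, and the other 4 H1 genes were at most at 2.01 RPKM in any library. Among the H2A genes, Hist2h2aa2 had 2.35, 14.4 and 10.6 RPKM. Its neighbour Hist2h2aa1, a second gene for the same protein, had 1.48, 11.998 and 9.36 RPKM. Hist1h2ad had 4.74, 13.1 and 10.8 RPKM. All 3 were at their highest in Dox (-), and the median H2A gene had 0.126 RPKM in MEF, 1.06 in Dox (-) and 0.481 in Dox (+).

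The H3 and H4 genes were mostly low, with class medians in Dox (-) of 0.626 and 1.21 RPKM. Hist2h3c1 had 4.04 RPKM in MEF, 12.7 in Dox (-) and 5.49 in Dox (+). Hist1h3d had 3.01, 11.1 and 5.80 RPKM. Both H3 genes were lower in Dox (+) than in Dox (-). Hist1h4d was the only H4 gene above 10 RPKM, with 6.33, 14.6 and 12.95 RPKM. The testis genes in the list were low and lie in the stretch with common reads. Hist1h2ba, the testis H2B, had 0.0571, 0.457 and 3.62 RPKM. Hist1h1t, the testis H1, had 0.0978, 0.391 and 1.6002 RPKM.

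Many members share sequence, and TopHat can place a read at several copies, so values of similar genes are not independent. In the highest exon, over 50% of all words of 50 bases also occur in another gene for 38 of the 67 members. The median share was 78.9% in H2A, 65.8% in H2B, 62.0% in H3, 39.5% in H4 and 1.13% in H1 genes. Of the 17 members above 10 RPKM, 5 had at most 50% shared words, namely Hist1h2bc with 2.05%, Hist1h1c with 8.54%, Hist1h4d with 10.2%, Hist1h3d with 24.8% and Hist1h2bg with 49.7%. The highest exon of 25 members overlaps an exon of another gene, and whether the counting used strand is not given in the sources used here.

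The first comparison was between Dox (-) and MEF, which differ in the transgenes, in passage and in the source of the cells. All 17 members above 10 RPKM in any library exceeded it in Dox (-) but only 7 in MEF, so that this filter favours members high in Dox (-). The share of all genes with such intervals under this filter was not computed. All 17 were higher in Dox (-), each with a counting interval wholly above 1, and the ratios ran from 1.97 to 8.10 with a median of 3.33. The highest were Hist2h2aa1, at 8.10 (5.80 to 11.6), Hist2h2aa2, at 6.13 (4.61 to 8.28), and Hist1h2bp, at 5.21 (3.75 to 7.40). These 3 were also the only members called higher by the rule of more than 10 RPKM in at least 1 library and more than 4-fold, 3 of 17, where 8.26% of all 13234 genes above 10 RPKM were called. None was called lower, against 1.21%. All 3 have over 50% shared 50-base words, 100% in both Hist2h2aa genes and 67.8% in Hist1h2bp, and without such members 0 were called, while 1 remained without exons that overlap another gene. At 2-fold, 16 of 17 were higher, against 17.3% of all genes, and 0 of 17 lower, against 7.93%, and the exception was Hist1h1c at 1.97 (1.90 to 2.04).

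The 5 members with little shared sequence moved the same way. Hist1h2bc was 2.52-fold higher in Dox (-) than in MEF (2.43 to 2.62). The ratio was 2.31 (2.03 to 2.65) for Hist1h4d. It was 3.20 (2.87 to 3.58) for Hist1h2bg and 3.69 (3.11 to 4.40) for Hist1h3d. With Hist1h1c, the lowest and the highest of the 5 differ by more than their counting intervals, so that the members did not move by 1 common factor.

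Over all 67 members, 60 had a higher log2(RPKM + 1) value in Dox (-) than in MEF, and the median difference was 0.97 on that scale, which understates the change of low genes. The median was 0.06 over all genes and 0.01 over the genes above 10 RPKM, and the share of all genes higher on this scale was not computed. The counting interval of the ratio was wholly above 1 for 53 of 67 members and wholly below 1 for 1, against 35.1% and 27.1% of all genes. Of the 43 members above 1 RPKM, 21 were more than 4-fold higher and 0 lower, against 12.9% and 2.04% of all genes above 1 RPKM. Without the 12 genes of the stretch these were 18 of 39, and they belonged to all 5 classes, with 2 H1, 6 H2A, 3 H2B, 2 H3 and 5 H4 genes. Among the low ones, Hist2h2bb, an H2B gene, had 2 reads in MEF and 70 in Dox (-), at least 23.3-fold more, and Hist1h2ao, an H2A gene, had 3 and 45, at least 15-fold more. These names were chosen after their values had been seen. The exon of Hist2h2bb overlaps Gm42743, a noncoding RNA gene on the same strand with 0.173 RPKM in MEF and 4.76 in Dox (-). All of its 50-base words, 100%, occur in another gene, and for Hist1h2ao 93.5% occur in Hist1h2ap.

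**Figure D3:**
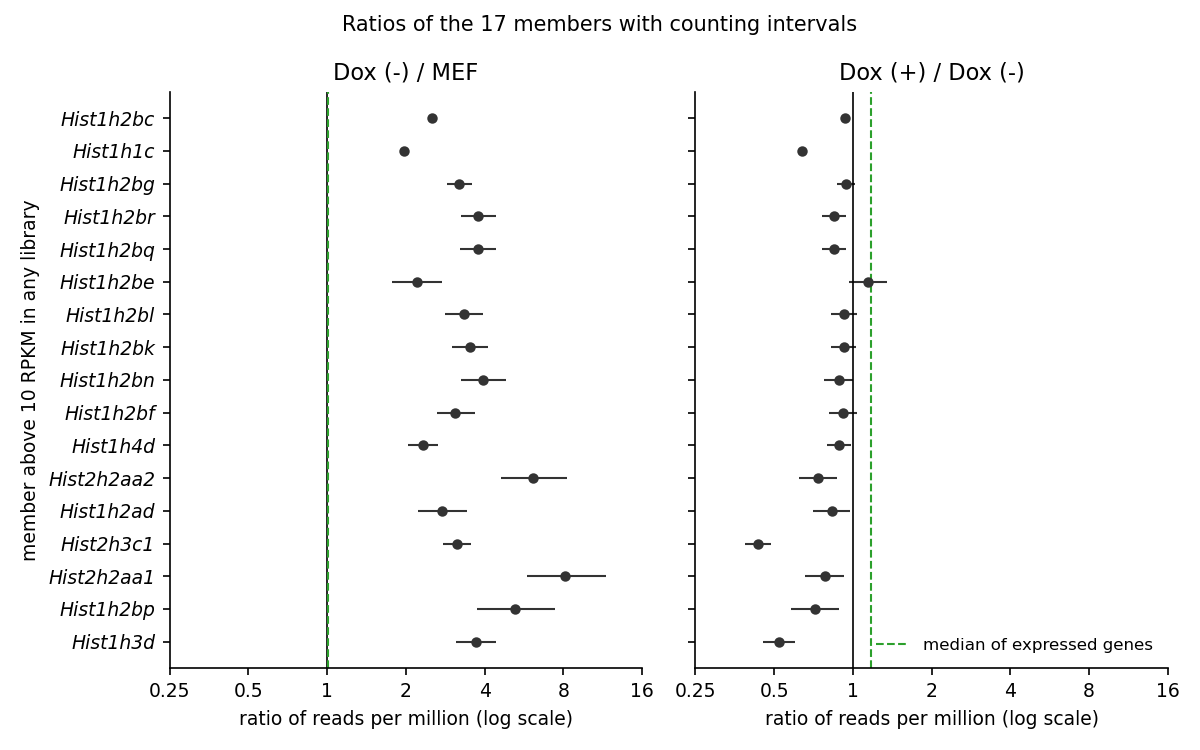
Ratio of depth-scaled reads (horizontal axis, log scale) with its 95% counting interval for the 17 members above 10 RPKM, for Dox (-) against MEF on the left and Dox (+) against Dox (-) on the right, with a solid line at 1 and a dashed line at the median ratio of expressed genes. All 17 points on the left lie between 1.97 and 8.10, and 16 of the 17 on the right lie below 1.

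The second comparison, between Dox (+) and Dox (-), is that of Mitf induction. Mitf had 30.8 RPKM in Dox (-) and 1544 in Dox (+), and 1.52 in MEF. No member above 10 RPKM was called at 4-fold in either direction, 0 of 17, where 1.64% of 13307 genes were called higher and 5.41% lower. At 2-fold 0 members were higher, against 10.8%, and 1 was lower, against 11.1%, namely Hist2h3c1. The ratio of Dox (+) to Dox (-) was 0.434 (0.387 to 0.486) for Hist2h3c1. For Hist1h3d it was 0.523 (0.455 to 0.599). For Hist1h1c it was 0.638 (0.617 to 0.660). These 2 H3 genes and the H1 gene had the lowest ratios of the 17. All 17 exceeded 10 RPKM in Dox (-) and 13 in Dox (+), and both H3 genes did so only in Dox (-), so that the filter favours lower ratios.

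The H2B genes were closer to 1. Hist1h2bc had a ratio of 0.933 (0.907 to 0.960), Hist1h2bg of 0.942 (0.872 to 1.02) and Hist1h2bp, the lowest of the 10, of 0.717 (0.581 to 0.883). The counting interval held 1 for 6 of the 10 H2B genes above 10 RPKM and lay wholly below 1 for 4. Over the 17 members it lay below 1 for 11 and above 1 for 0, and over all 67 members below 1 for 28 and above 1 for 15, against 24.8% and 35.5% of all genes. Without the stretch it lay below 1 for 27 of 55 and above 1 for 5. The median ratio of expressed genes was 1.17 in this comparison. Relative to it the interval lay wholly below for 16 of the 17, the exception being Hist1h2be, whose exon is that of Hist1h1e. The share of all genes above 10 RPKM with intervals below 1 or below this median was not computed. The counts over the 17 also rest on the filter that favours lower ratios.

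Lower down the scale, the 12 genes of the stretch decided the picture. Of 51 members above 1 RPKM, 7 were more than 4-fold higher in Dox (+), against 2.74% of all genes, and 8 lower, against 8.3%. The 7 higher ones all lie in the stretch, and without it 0 of 39 were higher and 8 of 39 lower. The 8 lower ones were Hist1h2ao, Hist1h2ap, Hist2h2bb, Hist1h3i, Hist1h4i, Hist1h4j, Hist1h4k and Hist2h4, that is 2 H2A, 1 H2B, 1 H3 and 4 H4 genes, named after their values had been seen. They lay between 1.00 and 7.03 RPKM in Dox (-) and between 0 and 1.65 RPKM in Dox (+). Hist1h4i, the highest of them, had 122 reads in MEF, 230 in Dox (-) and 53 in Dox (+). Hist2h2bb had 2, 70 and 14 reads, so that both knock-in libraries were above MEF. Gm42743, which overlaps its exon on the same strand, had 0.173, 4.76 and 1.06 RPKM, and its part in these reads was not tested. Hist1h2ao and Hist1h2ap share most of their words and are not 2 independent observations.

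By class, outside the stretch, all 10 H4 genes had lower log2(RPKM + 1) values in Dox (+) than in Dox (-), with a median difference of -0.81. These are not 10 independent observations, because 89.8% of the words of Hist1h4m occur in Hist1h4n. Some are near the floor, such as Hist1h4f with 1 read in Dox (-) and 0 in Dox (+). Of the 3 H1 genes 2 were lower and the median was -0.61. For the 9 H3 genes 7 were lower and the median was -0.23, for the 18 H2A genes 11 were lower and the median was -0.13, and for the 15 H2B genes 12 were lower and the median was -0.11. Over all 55 genes outside the stretch, 42 were lower and the median was -0.19, while for all 67 members 44 were lower and the median was -0.12. On the same scale the median was 0.0083 over all genes, most like this set, and 0.23 over genes above 10 RPKM. The share of all genes lower on this scale was not computed. At 1 RPKM and 2-fold, 11 of 51 members were higher and 15 lower in Dox (+), against 11.7% and 16.3% of all genes. Outside the stretch 15 of 39 were lower and 2 higher, Hist3h2ba and Hist3h2bb-ps on chromosome 11. Hist3h2ba had 32 reads in MEF, 30 in Dox (-) and 93 in Dox (+), and Hist3h2bb-ps had 32, 33 and 94. The lowest number of reads over the 4 listed exons of that sub-cluster was 32, 30 and 93, which is that of Hist3h2ba itself. Whether Hist3h2ba and Hist3h2bb-ps hold common reads like those of the stretch therefore cannot be told from this minimum. Trim17, a gene beside them, moved alike, with 43.5, 44.4 and 108.7 RPKM, and its part in their values was not tested.

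The third comparison, between Dox (+) and MEF, shares its libraries with the other 2. All 17 members were higher in Dox (+), each with a counting interval wholly above 1, from 1.26-fold for Hist1h1c to 6.32-fold for Hist2h2aa1. Of these 17, 13 exceeded 10 RPKM in Dox (+) and 7 in MEF, so that this filter does not favour MEF. The share of all genes with such intervals under it was not computed. Over all members the interval was wholly above 1 for 47 of 65 and below 1 for 2, against 42.5% and 22.9% of all genes, and without the stretch above 1 for 35 and below 1 for 2. At 4-fold 1 of 13 was called higher, Hist2h2aa2, against 6.55% of 12941 genes, and 0 lower, against 3.4%. That call, on an exon with 100% shared words, was lost with libraries rescaled by the median ratio, with a pseudocount of 1 RPKM, without overlapping exons and without members of over 50% shared words. At 2-fold 12 of 13 were higher, against 20.2%, and 0 lower, against 8.98%. Of 40 members above 1 RPKM, 17 were more than 4-fold higher, against 10.4%, and 0 lower, against 4.83%, but without the stretch this was 6 of 28. The median difference over the 67 members was 0.76 on the log2 scale, and 0.52 without the stretch. It was 0.12 over all genes and 0.27 over genes above 10 RPKM.

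Lists of cell cycle genes were read beside the histone genes. In Dox (-) against MEF, 23 of 28 genes of S phase and DNA replication were lower, with a median difference of -0.49 on the log2(RPKM + 1) scale, and 15 of 15 genes of G2 and M phase were lower, with a median of -0.89. No gene of either list was called at 4-fold there. In Dox (+) against Dox (-) the S phase list had a median of -0.80, and the only gene called lower was Ccna2, cyclin A2, with 127 RPKM in MEF, 74.5 in Dox (-) and 13.4 in Dox (+). The G2 and M list had a median of -2.29 and 9 of 15 genes called lower, namely Kif11, Birc5, Top2a, Cenpf, Bub1, Mki67, Ccnb2, Bub1b and Cenpe. Mki67, the proliferation marker Ki-67, went from 80.4 RPKM in MEF to 61.3 in Dox (-) and 3.16 in Dox (+). Mki67 was 19.4-fold lower in Dox (+) than in Dox (-). For comparison, the ratio of Dox (+) to Dox (-) was 0.933 for Hist1h2bc, 0.523 for Hist1h3d and 0.434 for Hist2h3c1. Outside the stretch 42 of 55 members were lower and 13 higher in Dox (+), with a median of -0.19. A link between the cell cycle genes and the members was not tested.

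**Figure D4:**
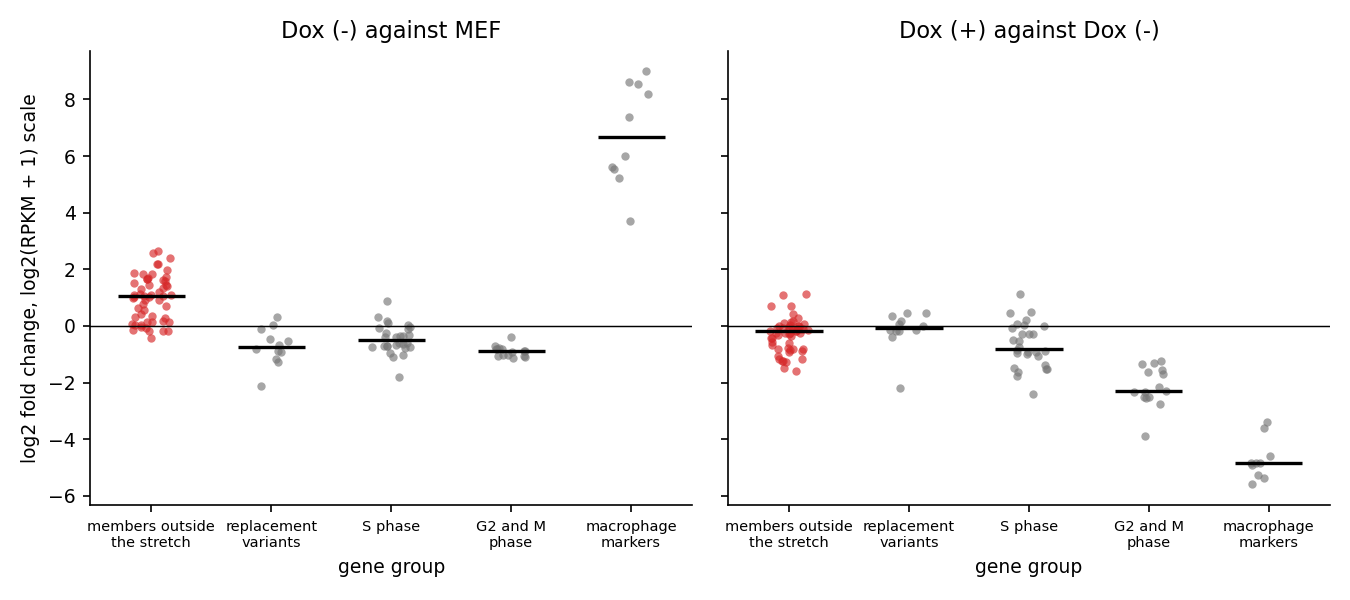
Difference on the log2(RPKM + 1) scale (vertical axis) for the 55 members outside the stretch, in red, and for the genes of 4 comparison lists, in grey, with 1 point per gene and the median as a black line, for Dox (-) against MEF on the left and Dox (+) against Dox (-) on the right. On the left the members have a median of 1.04 and the S phase and G2 and M lists medians of -0.49 and -0.89, and on the right the G2 and M list lies at -2.29 and the members at -0.19.

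The replacement histones, which carry tails in any cell, went the other way in the first comparison. Of the 12 replacement and H1 variant genes, 10 were lower in Dox (-) than in MEF, with a median difference of -0.74, and in Dox (+) against Dox (-) the median was -0.07 with 6 higher and 6 lower. H3f3a, an H3.3 gene, had 3281 RPKM in MEF, 1868 in Dox (-) and 1680.3 in Dox (+), above every clustered member. The only gene called in Dox (+) against Dox (-) was Cenpa, lower in Dox (+), which encodes the centromeric H3 variant, with 171 RPKM in MEF, 90.9 in Dox (-) and 18.9 in Dox (+). In Dox (-) against MEF the only gene called was H2afy2, a macroH2A gene, with 167 RPKM in MEF and 37.2 in Dox (-). H2afz, the H2A.Z gene, had 619, 255 and 193 RPKM, and it was named, like H3f3a and H2afy2, after its values had been seen.

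The genes that form and destroy histone 3′ ends were then read. None of the 19 listed genes of histone mRNA processing and decay was called at 4-fold in any of the 3 comparisons, and the median difference was -0.15 in Dox (-) against MEF and 0.30 in Dox (+) against Dox (-), where the median of genes above 10 RPKM was 0.23. At 2-fold, Cstf2 (56.2 RPKM in Dox (-), 137 in Dox (+)) and Lsm11 (21.2 and 43.6) were higher in Dox (+), Casp8ap2 (38.2 and 13.7) was lower, and Xrn1 was higher in Dox (-) than in MEF (38.1 against 18.3), all 4 named after their values had been seen. Slbp had 728 RPKM in MEF, 506 in Dox (-) and 609 in Dox (+). Ncbp2, of the cap binding complex, had 267, 291 and 360 RPKM, and Srrt, its partner in RNA processing, had 209, 208 and 251. All 3 varied by less than 1.5-fold over the libraries. None of the 19 histone chaperone genes was called either, with medians of -0.40 and 0.36 in the same 2 comparisons. Npm1, the highest of them in MEF, had 2350 RPKM in MEF, 878 in Dox (-) and 1227 in Dox (+).

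Markers of other cells moved with the first 2 comparisons and are given beside them. The 10 macrophage markers summed to 61.8 RPKM in MEF, 17078 in Dox (-) and 626 in Dox (+), and all 10 were called higher in Dox (-) than in MEF and lower in Dox (+) than in Dox (-). Lyz2, the lysozyme of macrophages, had 27.8, 10820 and 379 RPKM, and Ptprc, the leukocyte antigen CD45, had 0.0655, 67.6 and 0.770 RPKM. Beside these macrophage sums, the clustered histone genes summed to 333, 918 and 794 RPKM in the same order, and to 267, 781 and 680 without the stretch. The part of these cells in the difference between Dox (-) and MEF was not tested. The fibroblast markers were present in all 3 libraries, with sums of 55065, 70403 and 44030 RPKM, and 3 of 10, Col1a1, Col1a2 and Col3a1, were called lower in Dox (+) than in Dox (-). The melanocyte markers summed to 6.56, 45.8 and 1819 RPKM, of which Mitf, the induced gene itself, held 1.52, 30.8 and 1544. In Dox (+) against Dox (-), 4 of 10, Mitf, Tyrp1, Mlana and Trpm1, were called higher. On the log2 scale 9 of 10 were higher there and 1 lower, Sox10, with 6.69 and 1.66 RPKM in Dox (-) and Dox (+). Dct, with 0.798 and 0.900 RPKM, and Slc45a2, with 0.0585 and 0.0945, stayed under 1 RPKM. None of the 10 housekeeping genes was called in any comparison, with medians of -0.37 in Dox (-) against MEF and 0.37 in Dox (+) against Dox (-). In bulk RNA, fewer cells that express a gene and less of its RNA per cell cannot be told apart.

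The transcript models were then compared with the levels. The annotated transcript ends within 100 bases of the stem-loop in 22 members, goes further in 22 and holds no stem-loop in 23. Outside the stretch the median level of the 16 genes that end at the stem-loop was 0.639 RPKM in MEF, 6.91 in Dox (-) and 3.16 in Dox (+). For the 18 that go past it the medians were 2.11, 5.25 and 3.29 RPKM. For the 21 without a stem-loop in the model they were 0.126, 1.32 and 0.640 RPKM. With the stretch included, the medians were 0.387, 1.92 and 3.10 RPKM for genes that end at the stem-loop, 1.46, 2.60 and 3.47 for those that go past it, and 0.125, 1.19 and 0.646 for those without one. The order of the first 2 groups in Dox (-) thus turned with the 12 genes of the stretch. In Dox (-), 6 of 22, 6 of 22 and 5 of 23 members of the 3 groups exceeded 10 RPKM. The members above 10 RPKM with the longest annotated extension past the stem-loop were Hist1h2be with 1861 bases, Hist2h3c1 with 1167, Hist1h1c with 840, Hist1h4d with 770 and Hist1h3d with 752, whereas Hist1h2bk ended 30 bases and Hist1h2bf 29 bases after it.

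Hist1h2bc, the highest member, has no stem-loop in its M21 model but a second exon spliced on downstream. Its coding exon of 423 bp, at chr13:23684199-23684621, had 54.2 RPKM in MEF, 159 in Dox (-) and 193 in Dox (+). Its downstream exon of 733 bp, at chr13:23692176-23692908, had 120.3, 304 and 283 RPKM. The downstream exon was above the coding exon in every library. Only 2.05% of the 50-base words of the downstream exon occur in another gene, against 86.9% of those of the coding exon. The ratio of Dox (+) to Dox (-) was 1.21 on the coding exon and 0.933 on the downstream exon, on different sides of 1. Reads on the coding exon may come from other genes, so this need not be a difference within Hist1h2bc.

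The genes Hist1h2bq and Hist1h2br also have exons downstream of their coding exons, and there the libraries differed far more. The downstream exon of Hist1h2bq, 1516 bp at chr13:21806612-21808127, had 56 reads in MEF, 710 in Dox (-) and 90 in Dox (+), or 0.821, 10.4 and 1.35 RPKM. It was 12.7-fold higher in Dox (-) than in MEF (9.65 to 16.96) and 7.71-fold higher than in Dox (+) (6.19 to 9.72). The downstream exon of Hist1h2br, 1716 bp at chr13:21835815-21837530, had 57, 697 and 90 reads. It holds all 50-base words of the Hist1h2bq exon, which make up 88.0% of its own, so that these are not 2 independent observations. Over the same libraries the highest listed coding exon of Hist1h2bq was 3.76-fold higher in Dox (-) than in MEF. Its ratio of Dox (+) to Dox (-) was 0.845. This coding exon and the downstream exon were thus in different proportions in Dox (-) than in the other 2 libraries. All 50-base words of this coding exon occur in other genes, from which its reads may come. Another listed coding exon of Hist1h2bq, 381 bp long and overlapping it, went otherwise, with 17, 19 and 38 reads in MEF, Dox (-) and Dox (+). Its ratios were 1.12 for Dox (-) to MEF and 2.05 for Dox (+) to Dox (-). Likewise a coding exon of 381 bp of Hist1h2br had only 2, 14 and 2 reads. Why these entries differ from those they overlap was not tested. A downstream exon of 190 bp of Hist1h2bp, also an H2B gene of the same sub-cluster, had 0 reads in MEF, 36 in Dox (-) and 0 in Dox (+), at least 12-fold above MEF and at least 11.7-fold above Dox (+). Dox (-) was also the library with the high macrophage markers, and their part in these downstream exons was not tested.

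**Figure D5:**
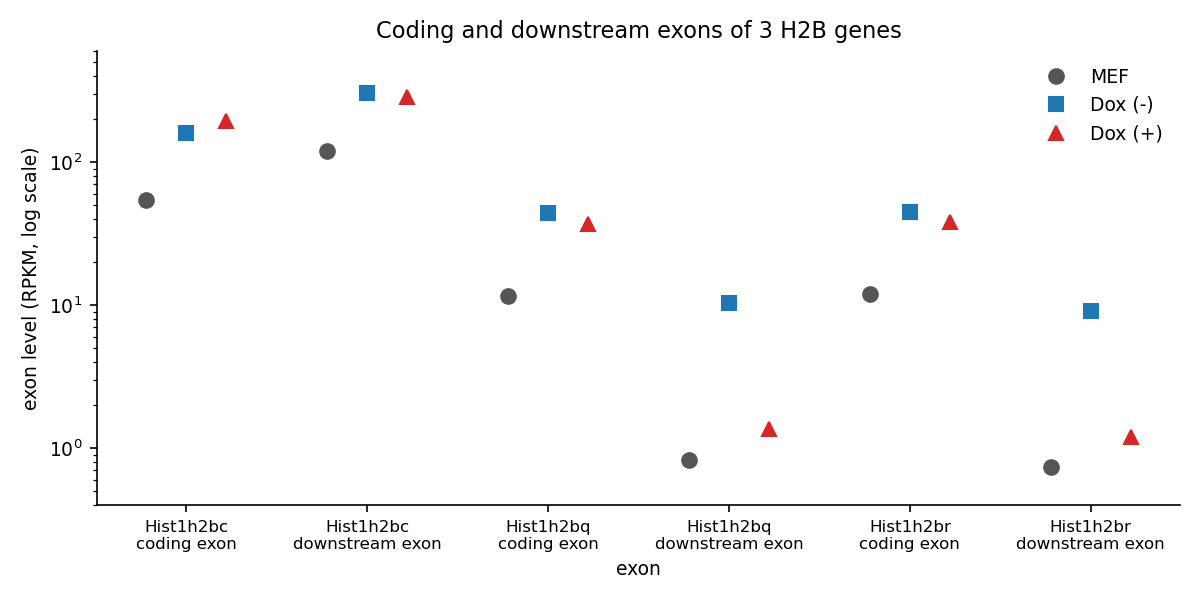
Level in RPKM (vertical axis, log scale) of the highest listed coding exon and of the longest downstream exon of Hist1h2bc, Hist1h2bq and Hist1h2br. A circle stands for MEF, a square for Dox (-) and a triangle for Dox (+). Dox (-) and Dox (+) lie side by side on the coding exons shown and on both exons of Hist1h2bc. On the downstream exons of Hist1h2bq and Hist1h2br only Dox (-) is high, at 10.4 and 9.03 RPKM. Lower coding exons of Hist1h2bq and Hist1h2br, given in the text, are not shown.

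Paired H2A and H2B genes with a common promoter region had very unequal levels. There were 12 such pairs on opposite strands, with starts 173 to 302 bases apart, and the H2B gene was higher than the H2A gene in 11 of 12 pairs in each library. The median over the pairs was 0.127 RPKM for H2A and 9.38 for H2B in MEF, 1.03 and 32.0 in Dox (-), and 0.424 and 28.9 in Dox (+). Across the octamer at chr13:23571331-23571358 shown above, Hist1h2ae had 0.537, 0.568 and 0.291 RPKM and Hist1h2bg 15.3, 49.1 and 46.2. Across the octamer at chr13:22035781-22035808, Hist1h2ah had 0.126, 0.251 and 0.385 RPKM and Hist1h2bk 9.56, 33.5 and 30.9. In both pairs the H2A gene stayed under 1 RPKM in all 3 libraries, while the H2B gene was 3.20-fold and 3.50-fold higher in Dox (-) than in MEF. The exception was Hist3h2a with 9.67, 7.01 and 7.38 RPKM and Hist3h2bb-ps with 1.53, 1.58 and 4.59 RPKM, and the highest exon of Hist3h2a overlaps Trim17 on the same strand. The share of words found in other genes was higher in H2A than in H2B genes, as given above, and its part in these ratios was not tested.

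By position, the members were grouped into 9 sub-clusters separated by more than 50 kb, a grouping made after the values had been seen. In the sub-cluster of 18 members at chr13:21715763-21837530, all 14 members above 1 RPKM in Dox (-) or Dox (+) were lower in Dox (+), with a median ratio of 0.375. Several of these, among them Hist1h4k, Hist1h3i and Hist1h2ao, passed this filter only through Dox (-), which favours lower ratios. Hist1h2ai and Hist1h2aj, which did not pass it, had 0 reads in Dox (-) and 11 and 10 in Dox (+). The share of all genes lower under this filter was not computed. In the 10 members on chromosome 3, at chr3:96219865-96270132, all 7 above 1 RPKM were lower, with a median ratio of 0.529. Of these, Hist2h2bb and Hist2h4 passed the filter only through Dox (-). In the 15 members at chr13:23531050-23622558, 7 of 9 were lower and the median ratio was 0.885. The minimum number of reads over the listed exons of these 3 sub-clusters was at most 6 in every library, against the 62 reads in Dox (+) from Hist1h1t to Hist1h2ba. In the chromosome 11 sub-cluster it was 93 in Dox (+), the reads of Hist3h2ba itself among only 4 listed exons.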

How the data were processed

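Per the labels and the study's methods, poly(A) selected RNA was sequenced from 4 conditions, with 1 library each. Reads were aligned to mm10 with TopHat2 2.0.10 and counted on Ensembl exons with bedtools, and the authors deposited RPKM values per exon. Whether strand was used, how reads with several placements were treated, and whether a spliced read was also counted on exons inside its gap is not given in the sources used here. Columns were assigned to libraries by name, and 1 column that matched no label was not used.

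Exons were matched to GENCODE M21, 228132 of 234718. Reads were recovered from RPKM, exon length and the depth that made most low values whole, with a tolerance of 0.05 reads. The depths of 45000000, 45000000 and 44000000 reads set the precision, and intervals of ratios are exact conditional binomial intervals. Of the 67 highest exons, 35 gave no whole reads at the M21 length, so their reads are approximate. Folds against 3 reads or fewer are lower bounds.

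Genes were called above 10 RPKM in at least 1 library and above 4-fold. The log2 scale used a pseudocount of 1 RPKM. Named members are those above 10 RPKM and the testis genes, and named list genes are those called in Dox (+) against Dox (-), else the 3 highest. The members and lists were chosen with earlier results of these data known. The steps were tested on simulated data. Python 3.11.15, pandas 2.3.3, NumPy 2.4.6, SciPy 1.17.1 and matplotlib 3.10.9 were used.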

Additional observations from a re-analysis of the deposited data

How the results depend on the processing

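With 1 library per condition no library could be left out. No paired analysis was possible because each condition had 1 library. The planned comparisons with PMel were not run. Of 108 values recomputed under other settings, 68 stayed close to the main value (counts within 1.5 times) and 40 moved. None of the median differences among them changed sign, and the others are counts, which cannot. Leaving out the 12 members from Hist1h1t to Hist1h2ba, or the members with over 50% shared words, was chosen after the data had been seen.
In Dox (+) against Dox (-), 7 members were called higher and 8 lower at 1 RPKM, 10 and 12 with no filter, and 1 lower at 2-fold, against 0 and 0. The median log2 difference, -0.12, became -0.076 with a pseudocount of 5 RPKM, -0.32 with libraries rescaled by the median ratio and -0.19 without the 12 members. In Dox (-) against MEF, 3 members were called higher, and 21 at 1 RPKM, 0 at 30 RPKM, 35 with no filter (then 3 lower), 16 at 2-fold, 1 at 8-fold, 1 without exons that overlap another gene and 0 without members of over 50% shared words. Its median of 0.97 became 0.30 with a pseudocount of 5 RPKM and 1.80 with 0.1 RPKM. In Dox (+) against MEF, 1 member was called higher, and 17 at 1 RPKM, 27 with no filter (then 2 lower) and 12 at 2-fold, and 0 at 30 RPKM, at 8-fold, with a pseudocount of 1 RPKM in the fold, after rescaling, without overlapping exons and without shared members. Its median of 0.76 became 0.31 with a pseudocount of 5 RPKM, 1.51 with 0.1 RPKM and 1.17 without overlapping exons. Members above the threshold in MEF, Dox (-) and Dox (+) numbered 7, 17 and 13, and 25, 43 and 40 at 1 RPKM, 2, 9 and 8 at 30 RPKM, and 3, 5 and 4 without shared members. The last of these counts could by construction only stay or fall, because members were left out. Whether the smaller set alone gave these numbers was not tested, nor was the cause of the other changes.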
